A study of Homo sapiens with 10 samples.

Results

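HOXB2 to HOXB9, the 8 neighbouring genes that make up the body of the HOXB cluster, were followed in K562, an established line of human myelogenous leukemia cells, after inhibition of the CREBBP/EP300 bromodomains. The genes were chosen by name, as the rows HOXB2 to HOXB9 of an expression table of 23284 genes, in order to ask whether a fall of HOXB9 was shared by its neighbours. All 8 were in the table and all 8 passed the filter on low values (average of 0.5 FPKM or more across libraries), as did 12788 genes in all. Cells grown in RPMI with fetal bovine serum were exposed for 48 h to the vehicle DMSO, to CBP30 at 2 or 5 µM, or to I-CBP112 at 2 or 5 µM. Both compounds bind the bromodomains of the histone acetyltransferases CREBBP and EP300. Each of the 5 conditions had 2 biological replicates, and polyadenylated RNA was sequenced as single reads of 50 bases. Values are FPKM, fragments scaled by the length of the transcript and by the reads mapped in the library, so that levels of different genes can be set beside each other. Any further scaling between libraries by Cuffnorm, the program that wrote the table, is not given in the sources used here. All cells were of 1 line, so the spread below is that between cultures.

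HOX genes encode homeodomain transcription factors that give cells their position along the body axis. They lie in clusters in which the order of the genes follows the order of their expression along that axis, with the low-numbered, anterior genes at the 3′ end and the high-numbered, posterior genes at the 5′ end. In blood, HOXA and HOXB genes are active in stem and progenitor cells and are switched off as the cells mature, and they are kept on by MLL complexes and off by Polycomb complexes. On GRCh37 (the hg19 assembly) all 8 genes lie on the minus strand of chromosome 17, from HOXB2 (46618256 to 46622471) to HOXB9 (46698518 to 46703720), and the canonical transcripts span 83.7 kb. HOXB1 lies beyond HOXB2, and HOXB13 lies apart from the others beyond HOXB9. The gene models overlap. The annotated span of HOXB3 (46626232 to 46682274) holds the canonical transcripts of HOXB4 and HOXB5, that of HOXB7 (46684594 to 46710934) holds those of HOXB8 and HOXB9, and the antisense gene HOXB-AS3 lies across HOXB4, HOXB5 and HOXB6 on the plus strand. The library kit keeps the strand, but the strand setting of the quantification is not given in the sources used here, and reads of overlapping genes could have been split between them.

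The libraries were of similar scale. The summed FPKM ranged from 547504 to 689095 and replicates correlated with r of 0.962 to 0.976 on the log2(FPKM + 1) scale. The depth in reads is unknown, and the number of replicates limits the precision. Replicate 1 of 2 µM CBP30 stood apart from its partner by a trend with transcript length (Spearman's rho = −0.567 over 12135 genes for replicate 1 minus replicate 2), and EEF1A1, an abundant translation factor, was listed there at 0 against 5338 to 6661 FPKM in the other libraries. Both libraries of 5 µM CBP30 had a weaker trend of the opposite sign (rho = 0.177 and 0.176 for the ratio to DMSO). By longest transcript the 8 genes lay between percentile 10.5 (HOXB7) and 59.0 (HOXB3) of the genes tested, and the part of the length trend in the results was not tested beyond the correction given below. All 9 markers of K562 cells were expressed, although their summed level was 551 to 984 FPKM in treated libraries against 1396 and 1406 FPKM with DMSO. The T cell marker CD2 and the B cell marker MS4A1 were at 0 throughout. The 4 T cell markers summed to 16.6 and 19.4 FPKM with DMSO and to 17.7 to 30.5 FPKM with treatment, nearly all of it CD3D, and the part of these shifts in the HOXB values was not tested.

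With 5 µM CBP30 the fall of HOXB9 was shared by HOXB8, and no other gene of the cluster was significantly lower. HOXB8 fell to 42.0% and HOXB9 to 67.4% of their DMSO means, whereas HOXB2 rose to 167% and HOXB3 to 150%, and the genes between them, HOXB4 to HOXB7, did not pass the test. With 5 µM CBP30, 2 of the 8 genes were significantly lower and 2 significantly higher (limma, adjusted p under 0.05). Each is 25% of the cluster, against 25.4% of all tested genes called lower and 21.2% called higher, so the number of genes that changed is near the background and only the places of the changed genes in the cluster are described here. The 2 that fell stand side by side at the posterior end and the 2 that rose stand side by side at the anterior end. The median log2 fold change of the 8 genes was 0.07, beside −0.01 over all tested genes. In RNA from a whole culture, fewer cells expressing a gene and less RNA per cell cannot be told apart.

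HOXB9 patterns the thoracic skeleton and was the most highly expressed gene of the cluster in every library. It stood at 98.8 and 96.8 FPKM with DMSO, at 78.7 and 77.4 with 2 µM CBP30, and at 66.9 and 65.1 with 5 µM CBP30. With I-CBP112 it stood at 90.3 and 97.6 FPKM at 2 µM and at 84.6 and 85.7 at 5 µM. The CBP30 libraries lay below both DMSO libraries and below all I-CBP112 libraries, and the 2 concentrations of CBP30 did not overlap. The log2 fold change with 5 µM CBP30, on the log2(FPKM + 1) scale like all those below, was −0.56 (SE 0.0511, adjusted p = 0.000177 from limma). This value lay at percentile 10.8 of all tested genes. With 2 µM it was −0.32 (adjusted p = 0.00417 from limma). HOXB9 was chosen with this fall known.

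HOXB8, whose enforced expression blocks the maturation of myeloid progenitors, had the largest change of the cluster. With DMSO it stood at 14.1 and 14.0 FPKM, with 2 µM CBP30 at 12.7 and 10.5, and with 5 µM CBP30 at 6.53 and 5.28. In the I-CBP112 libraries it stood at 11.5 and 12.4 FPKM at 2 µM and at 11.0 and 11.1 at 5 µM. Every treated library was below both DMSO libraries, and both libraries of 5 µM CBP30 were below all the others. The log2 fold change with 5 µM CBP30 was −1.13 (SE 0.109, adjusted p = 0.000227 from limma), at percentile 2.42 of all tested genes. With 2 µM CBP30 it was −0.26 and did not pass the test (adjusted p = 0.106 from limma).

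HOXB2, a gene of the hindbrain and of the anterior end of the cluster, moved in the opposite direction. It stood at 36.4 and 34.4 FPKM with DMSO, at 67.5 and 49.4 with 2 µM CBP30, and at 60.7 and 57.2 with 5 µM CBP30. The I-CBP112 libraries, at 36.6 to 38.0 FPKM with 2 µM and 35.8 and 37.3 with 5 µM, lay in or just above the range of DMSO. The 4 CBP30 libraries were above the other 6. The log2 fold change was 0.72 with 5 µM CBP30 (SE 0.129, adjusted p = 0.00348 from limma), at percentile 94.4 of all tested genes, and 0.69 with 2 µM (adjusted p = 0.00783 from limma).

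HOXB3, which acts with HOXB4 in the growth of blood progenitors, rose with both concentrations of CBP30. Its values were 10.9 and 9.93 FPKM with DMSO, 12.0 and 14.0 with 2 µM CBP30, and 15.8 and 15.4 with 5 µM CBP30. With I-CBP112 they were 11.3 and 10.2 FPKM at 2 µM and 10.4 and 10.3 at 5 µM. The CBP30 concentrations did not overlap each other or DMSO, and the I-CBP112 libraries overlapped DMSO. The log2 fold change was 0.54 with 5 µM CBP30 (SE 0.0845, adjusted p = 0.00184 from limma) and 0.29 with 2 µM (adjusted p = 0.0363 from limma).

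**Figure D1:**
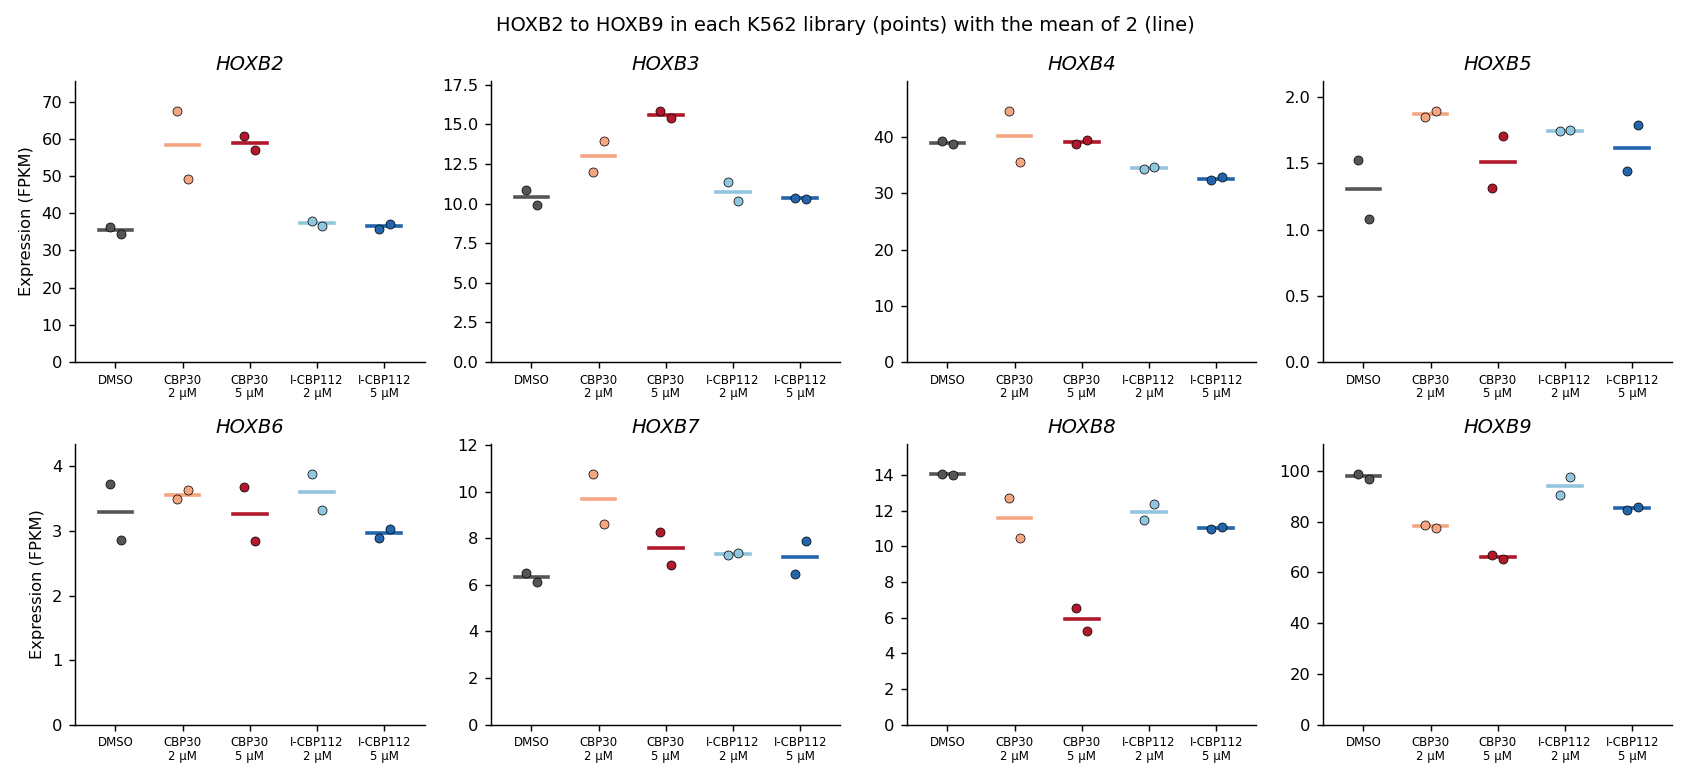
FPKM (y axis, from 0, scaled for each gene) of HOXB2 to HOXB9 in the 10 libraries, grouped by condition on the x axis, with each point a library and each line a mean of 2. The HOXB9 points fall from 98.8 and 96.8 with DMSO to 66.9 and 65.1 with 5 µM CBP30, while the HOXB2 points rise from 36.4 and 34.4 to 60.7 and 57.2.

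The 4 genes in the middle of the cluster showed no significant change with 5 µM CBP30. HOXB4, a factor that expands hematopoietic stem cells, stood at 39.2 and 38.9 FPKM with DMSO and at 38.8 and 39.5 with 5 µM CBP30, between 44.6 and 35.7 for the replicates of 2 µM. Its log2 fold change with 5 µM CBP30 was 0.0046, with a 95% confidence interval of −0.21 to 0.22. HOXB5 was the lowest gene of the cluster, at 1.52 and 1.08 FPKM with DMSO, 1.85 and 1.90 with 2 µM CBP30 and 1.32 and 1.71 with 5 µM. HOXB6, known from early erythroid progenitors, stood at 3.73 and 2.87 FPKM with DMSO and at 3.69 and 2.84 with 5 µM CBP30. The 95% confidence intervals of the log2 fold change with 5 µM CBP30 were −0.16 to 0.42 for HOXB5 and −0.32 to 0.29 for HOXB6. Changes within those bounds are therefore not excluded.

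HOXB7, a homeodomain factor linked to proliferation in several tumours, was higher with 2 µM CBP30 but not significantly so with 5 µM. It stood at 6.53 and 6.11 FPKM with DMSO, at 10.8 and 8.63 with 2 µM, and at 8.27 and 6.86 with 5 µM. All 4 CBP30 libraries were above both DMSO libraries. The log2 fold change was 0.54 with 2 µM (SE 0.129, adjusted p = 0.0191 from limma) and 0.22 with 5 µM (adjusted p = 0.196 from limma).

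At 2 µM CBP30, 3 of the 8 genes were significantly higher, HOXB2, HOXB3 and HOXB7, and 1, HOXB9, was significantly lower. These are 37.5% and 12.5% of the cluster, against 15.9% and 16.3% of all tested genes. The median log2 fold change of the 8 genes was 0.19, beside 0.01 over all tested genes. Unlike those at 5 µM, these calls did not all hold with 1 library left out. HOXB2, HOXB4, HOXB7 and HOXB8 were all higher in replicate 1 of 2 µM CBP30, the library that stood apart, than in replicate 2. Without that library the log2 fold changes were 0.47 for HOXB2, 0.39 for HOXB3, 0.40 for HOXB7, −0.39 for HOXB8 and −0.13 for HOXB4. Without replicate 2 of 2 µM CBP30, HOXB3 was at 0.19 and HOXB4 at 0.19, so the sign of HOXB4 at 2 µM turned with the library left out. Calls among the 3 higher genes were lost without DMSO replicate 1 or 2, in fits that called fewer of all tested genes in both directions. HOXB3 also missed the threshold without either library of 5 µM CBP30 or of 5 µM I-CBP112, where fewer of all tested genes were called too. HOXB9 was called without each library in turn, although the fits without a replicate of 2 µM CBP30 called more of all tested genes.

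**Figure D2:**
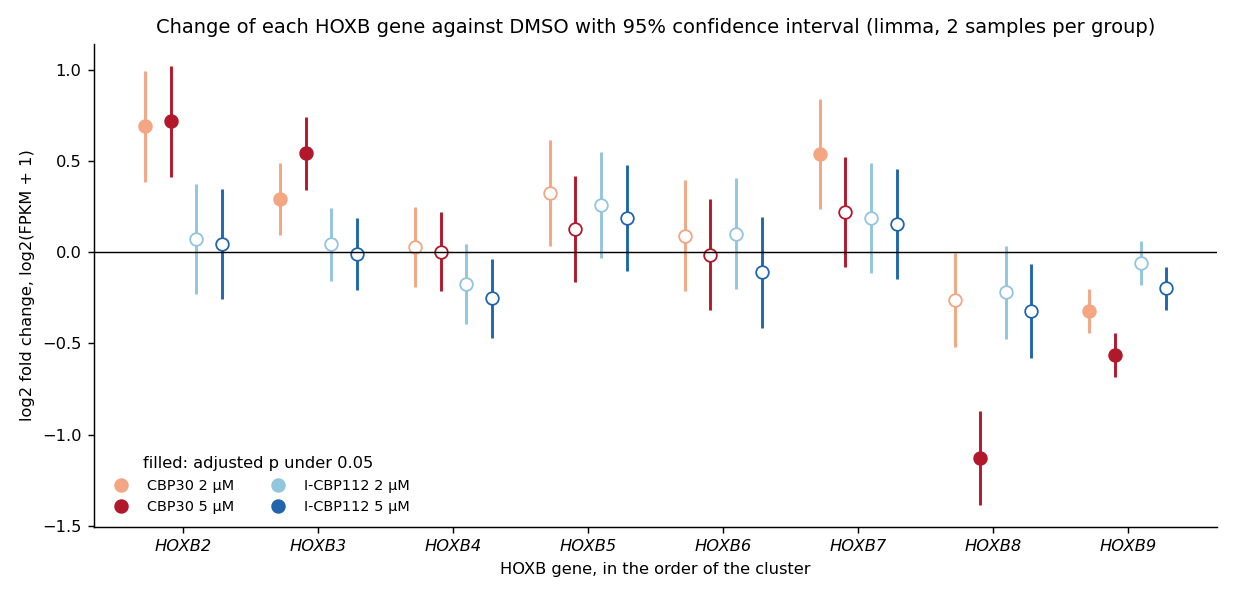
log2 fold change against DMSO on the log2(FPKM + 1) scale (y axis) of the 8 genes in the order of the cluster (x axis), with 95% confidence intervals from limma as vertical lines, colours for the 4 treatments, and filled points where the adjusted p was under 0.05. The 5 µM CBP30 points run from 0.72 at HOXB2 through values near 0 to −1.13 at HOXB8 and −0.56 at HOXB9.

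None of the 8 genes passed the same test with I-CBP112 at either concentration. At 5 µM, 0 of 8 genes passed in either direction, against 3.28% of all tested genes called lower and 3.84% called higher, and 3 genes had an unadjusted p under 0.05, all of them lower. They were HOXB9 (log2 fold change −0.20, SE 0.0511, adjusted p = 0.0666 from limma), HOXB8 (−0.32, SE 0.109, adjusted p = 0.137 from limma) and HOXB4 (−0.25, SE 0.0926, adjusted p = 0.166 from limma). HOXB4 stood at 34.3 and 34.7 FPKM with 2 µM I-CBP112 and at 32.3 and 32.9 with 5 µM, so that all 4 libraries were below both DMSO libraries, at 38.9 and 39.2. Leaving either replicate of 2 µM CBP30 out of the fit keeps these log2 fold changes and alters only the estimate of the spread. It raised the number of calls over all tested genes in this comparison, so calls of the 3 genes in those fits are not read. The median log2 fold change of the 8 genes was −0.06 with 5 µM I-CBP112, beside −0.0042 over all tested genes.

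With 2 µM I-CBP112, 0 of 8 genes passed in either direction in limma, and 0 had an unadjusted p under 0.05, against 0.735% of all tested genes called lower and 0.868% called higher. The log2 fold changes ranged from −0.22 (HOXB8) to 0.26 (HOXB5). HOXB4 was at −0.17, with or without a replicate of 2 µM CBP30 in the fit. HOXB5 stood at 1.75 FPKM in both libraries with 2 µM I-CBP112 and at 1.44 and 1.79 with 5 µM. HOXB6 stood at 3.89 and 3.33 FPKM with 2 µM and at 2.90 and 3.04 with 5 µM, and HOXB7 at 7.30 and 7.38 with 2 µM and at 6.48 and 7.87 with 5 µM. Against DMSO, the 2 libraries of a condition lay wholly above or below the 2 DMSO libraries for 5 of the 8 genes with 5 µM CBP30, for 6 with 2 µM CBP30, for 3 with 5 µM I-CBP112 and for 5 with 2 µM I-CBP112. Over all tested genes the libraries lay apart in this way for 82.1%, 61.9%, 64.2% and 53.3%, so nothing is read from the counts for the 8 genes. By adjusted p, 46.6%, 32.1%, 7.12% and 1.6% of all tested genes were called in either direction in these comparisons.

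The 2 posterior genes that were low with CBP30 were lower at the higher concentration. HOXB8 was lower at 5 than at 2 µM CBP30 (log2 fold change −0.87, SE 0.109, adjusted p = 0.00282 from limma), as was HOXB9 (−0.24, SE 0.0511, adjusted p = 0.0139 from limma). These 2 genes were 25% of the cluster, against 21.3% of all tested genes called lower, and 0 of 8 were called higher, against 17.6%. HOXB3, higher at 5 µM, lay just short of the threshold (0.25, adjusted p = 0.0515 from limma). HOXB2 did not pass the test between the concentrations (0.03, 95% confidence interval −0.27 to 0.33). Over the 19 alternatives this step ranged from −0.19 to 0.30 for HOXB2 and from −0.18 to 0.20 for HOXB4, so neither is shown to be level. The call of HOXB9 in this step was lost without replicate 1 or replicate 2 of 5 µM CBP30 (−0.26 and −0.22), where fewer of all tested genes were called too. It was also lost after quantile normalization (−0.096) and after removal of the length trend (−0.081). Calls are not counted without a replicate of 2 µM CBP30, since 1 library is then left and the calls over all tested genes moved too. Without replicate 1 of 2 µM CBP30, the log2 fold changes of this step were 0.25 for HOXB2 and 0.13 for HOXB4. Without its replicate 2 they were −0.19 for HOXB2, −0.18 for HOXB4, −0.46 for HOXB7 and 0.35 for HOXB3. HOXB2 and HOXB4 thus changed direction with the library left out, while HOXB8 (−0.74 and −0.995) and HOXB9 (−0.23 and −0.25) did not. Between 2 and 5 µM I-CBP112, 0 of 8 genes passed in limma and 1, HOXB9, had an unadjusted p under 0.05 (−0.14), against 0.00782% of all tested genes called lower, 0.0547% called higher and 0.0626% called in either direction. For HOXB8 the CBP30 step differed from the I-CBP112 step by −0.76 (SE 0.154, adjusted p = 0.0422 from limma), the only 1 of the 8 to pass, where 3.32% of all tested genes were called in that direction and 4.94% in either. That call was lost without any 1 library of DMSO, of 5 µM CBP30 or of I-CBP112, in fits that called fewer of all tested genes in this comparison. Without replicate 1 or 2 of 2 µM CBP30 the difference was −0.64 and −0.89, and calls are not counted there.

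At the same concentration, CBP30 and I-CBP112 differed at both ends of the cluster. At 5 µM, HOXB2 (log2 difference 0.67, SE 0.129, adjusted p = 0.00827 from limma) and HOXB3 (0.55, SE 0.0845, adjusted p = 0.00349 from limma) were higher with CBP30. HOXB8 (−0.81, SE 0.109, adjusted p = 0.00215 from limma) and HOXB9 (−0.36, SE 0.0511, adjusted p = 0.00256 from limma) were lower. These are 25% of the cluster in each direction, against 13.6% of all tested genes called higher, 17.9% called lower and 31.4% called in either direction. HOXB4, called in neither comparison with DMSO, was 0.26 higher with CBP30 than with I-CBP112 (95% confidence interval 0.04 to 0.47, adjusted p = 0.0740 from limma). The call of HOXB2 was lost without replicate 1 of 5 µM CBP30 (0.63) and without replicate 1 of 5 µM I-CBP112 (0.65). Those fits called fewer of all tested genes too. The differences of HOXB5, HOXB6 and HOXB7 at 5 µM were −0.06, 0.10 and 0.07, with 95% confidence intervals from −0.35 to 0.23, −0.21 to 0.40 and −0.24 to 0.37. These intervals do not show that the compounds act alike on these genes.

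At 2 µM, HOXB2 was higher with CBP30 than with I-CBP112 (0.62, SE 0.129, adjusted p = 0.0243 from limma) and HOXB9 was lower (−0.26, SE 0.0511, adjusted p = 0.0191 from limma). Each is 12.5% of the cluster, against 7.13% of all tested genes called higher and 8.45% called lower. HOXB8 did not differ significantly between the compounds at 2 µM (−0.04, 95% confidence interval −0.30 to 0.21). Without replicate 1 or 2 of 2 µM CBP30 the difference of HOXB2 was 0.40 and 0.84, and calls are not counted in those fits. The call of HOXB2 was lost without any 1 of the other 8 libraries, in fits that called fewer of all tested genes. That of HOXB9 was lost without replicate 2 of 2 µM I-CBP112 (−0.21), where fewer of all tested genes were called too.

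The order of the levels changed with CBP30. With DMSO the order from the highest was HOXB9 (97.8 ± 1.39 FPKM, mean ± SD, n = 2), HOXB4 (39.0 ± 0.255), HOXB2 (35.4 ± 1.41), HOXB8 (14.0 ± 0.0494), HOXB3 (10.4 ± 0.673), HOXB7 (6.32 ± 0.295), HOXB6 (3.30 ± 0.612) and HOXB5 (1.30 ± 0.312), and no neighbours in that order overlapped. With 5 µM CBP30, HOXB2 (58.9 ± 2.51 FPKM) was second after HOXB9 (66.0 ± 1.24) and above HOXB4 (39.2 ± 0.512). HOXB8 (5.90 ± 0.883 FPKM) had moved from the fourth place to the sixth, below HOXB3 (15.6 ± 0.325) and HOXB7 (7.57 ± 0.999). At 2 µM CBP30 the libraries of HOXB3 and HOXB8, and those of HOXB8 and HOXB7, overlapped. HOXB2 was above HOXB4 with I-CBP112 too, by a smaller margin (37.3 ± 1.02 against 34.5 ± 0.242 FPKM at 2 µM, and 36.5 ± 1.01 against 32.6 ± 0.427 at 5 µM).

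Ratios between genes of a library do not depend on a scaling factor of that library, although a length trend still enters them. The ratio of HOXB9 to HOXB2 in FPKM was 2.72 and 2.82 with DMSO, 1.17 and 1.57 with 2 µM CBP30, and 1.10 and 1.14 with 5 µM CBP30. It was 2.30 to 2.67 in the 4 I-CBP112 libraries, all below both DMSO libraries. The ratio of HOXB8 to HOXB7, neighbouring genes, was 2.16 and 2.29 with DMSO, 1.18 and 1.21 with 2 µM CBP30, and 0.789 and 0.769 with 5 µM CBP30, so that HOXB8 passed from above HOXB7 to below it. HOXB9 made up 46.8% and 47.5% of the summed FPKM of the 8 genes with DMSO and 33.1% and 33.6% with 5 µM CBP30, and HOXB2 went from 17.2% and 16.8% to 30.1% and 29.5%. The sum itself was 211 and 204 FPKM with DMSO, 202 and 194 with 5 µM CBP30, and 185 to 232 over all libraries.

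The 4 calls at 5 µM CBP30 held in all 19 alternatives run. HOXB8 and HOXB9 were called lower (log2 fold changes of −1.26 to −0.999 and −0.58 to −0.45) and HOXB2 and HOXB3 were called higher (0.68 to 0.86 and 0.48 to 0.60). After removal of the length trend HOXB4 (adjusted p = 0.0479 from limma) and HOXB7 (adjusted p = 0.0180 from limma) were also called higher. HOXB5 and HOXB6 were called in none of the 18 alternatives that tested them. At the lower concentration of CBP30, HOXB9 was called in 18 of 19 alternatives, HOXB2 in 17, HOXB7 in 15 and HOXB3 in 9.

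**Figure D3:**
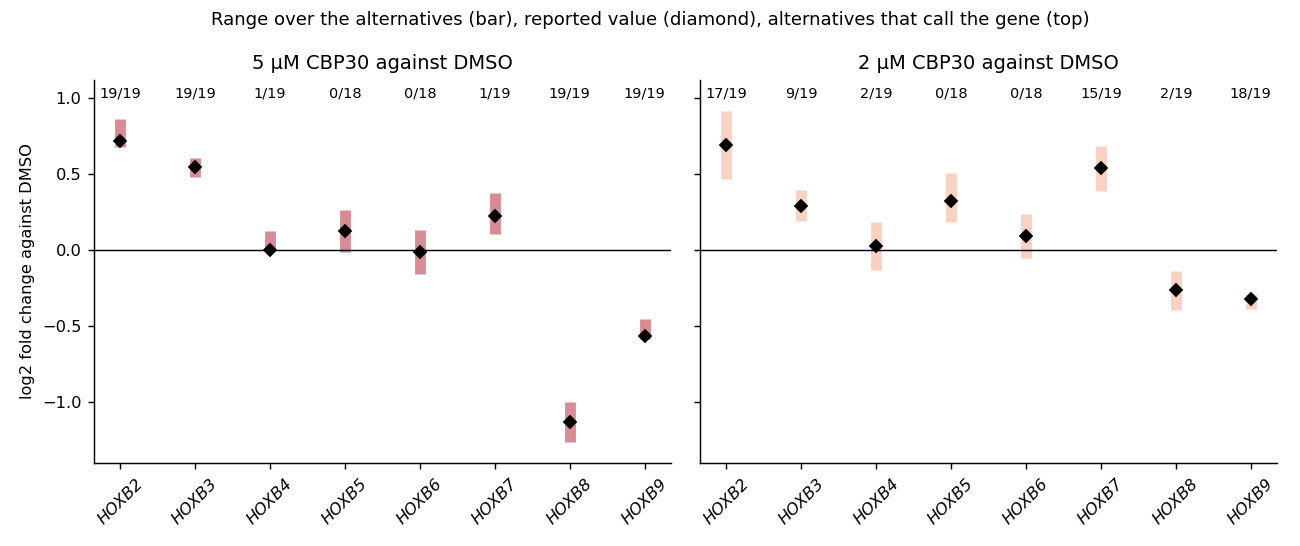
Range of the log2 fold change against DMSO (y axis) over the alternatives for each of the 8 genes (x axis), for 5 µM CBP30 on the left and 2 µM on the right, with the reported value as a diamond and the number of alternatives that call the gene above it. On the left HOXB2, HOXB3, HOXB8 and HOXB9 are called in 19 of 19, and on the right HOXB3 is called in 9 of 19. All alternatives but 1, with a pseudocount of 0.1, use log2(FPKM + 1).

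The genes whose profile over the 10 libraries was most like that of HOXB9 were outside the cluster. Among 8996 genes averaging 5 FPKM or more, Pearson's r on the log2(FPKM + 1) scale was highest for FTSJ1, an RNA methyltransferase (0.994), ERCC2, a helicase of TFIIH (0.993), SMARCA4, the ATPase of the SWI/SNF complex (0.990), POLR3E, a subunit of RNA polymerase III (0.989), and GALM, an enzyme of galactose metabolism (0.988). The libraries of a condition share the treatment, so these values describe 5 conditions more than 10 points. Among 12787 tested genes ranked in this way, HOXB8 was in place 959 (r = 0.900). HOXB6 (0.07), HOXB5 (−0.15), HOXB4 (−0.29) and HOXB7 (−0.40) had weak correlations with HOXB9, and HOXB2 (−0.83, place 11321) and HOXB3 (−0.91, place 12036) lay near the opposite end.

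HOXB1, HOXB13 and the microRNA genes MIR10A and MIR196A1 were at or near 0. HOXB1 was at most 0.0871 FPKM and HOXB13 at most 0.205 in any library, and MIR10A and MIR196A1, whose short products a library of polyadenylated RNA does not capture well, were listed at 0 in all. Of 12 other transcripts of the locus, 7 were in the table and 1 passed the filter. This was HOXB-AS3, at 3.71 and 4.48 FPKM with DMSO and 3.84 and 3.12 with 5 µM CBP30, which did not pass the test (log2 fold change −0.19, adjusted p = 0.255 from limma). Of 9 protein-coding genes beside the cluster, 7 were tested, and with 5 µM CBP30 2 were higher and 2 lower, together 4 of 7 beside 46.6% of all tested genes called in either direction. CBX1, a heterochromatin protein (0.36, adjusted p = 0.00102 from limma), and UBE2Z, a ubiquitin-conjugating enzyme (0.21), were higher, and CALCOCO2, an autophagy receptor (−0.27), and NFE2L1, a stress-response transcription factor (−0.26), were lower.

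Of 28 genes of the HOXA, HOXC and HOXD clusters, 11 passed the filter, and with 5 µM CBP30 2 were significantly higher and 3 lower, beside 21.2% of all tested genes called higher and 25.4% called lower. Their median log2 fold change was −0.04, beside −0.01 for all tested genes. HOXC4 (log2 fold change 0.54) and HOXC10 (0.31) were higher. HOXD13, the most posterior gene of its cluster, was lower, from 6.78 to 7.23 FPKM with DMSO to 2.33 to 2.72 with 5 µM CBP30 (log2 fold change −1.19, adjusted p = 3.03e-05 from limma). HOXC8 (−0.48, adjusted p = 0.00562 from limma) and HOXC9 (−0.45, adjusted p = 0.00547 from limma), the counterparts of HOXB8 and HOXB9, were lower too, a coincidence picked out after its values were seen. HOXC8 was near the filter on low values, at 0.761 and 0.851 FPKM with DMSO and 0.289 and 0.303 with 5 µM CBP30. HOXC9 went from 6.68 and 7.04 to 4.68 and 4.82 FPKM. At 2 µM CBP30, HOXC9 was significantly higher (0.31, adjusted p = 0.0382 from limma), although not without replicate 1 of that condition, HOXC8 was at −0.02 (adjusted p = 0.909 from limma) and HOXB9 was lower. At 2 µM CBP30, 4 of these 11 genes were higher and 1 lower, beside 15.9% and 16.3% of all tested genes. Most of the higher calls did not hold without replicate 1 of 2 µM CBP30, the library that stood apart, where the median over the 11 genes was 0.18. With 5 µM I-CBP112 1 was lower and 0 higher, beside 3.28% and 3.84% of all tested genes, and with 2 µM I-CBP112 0 were called.

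**Figure D4:**
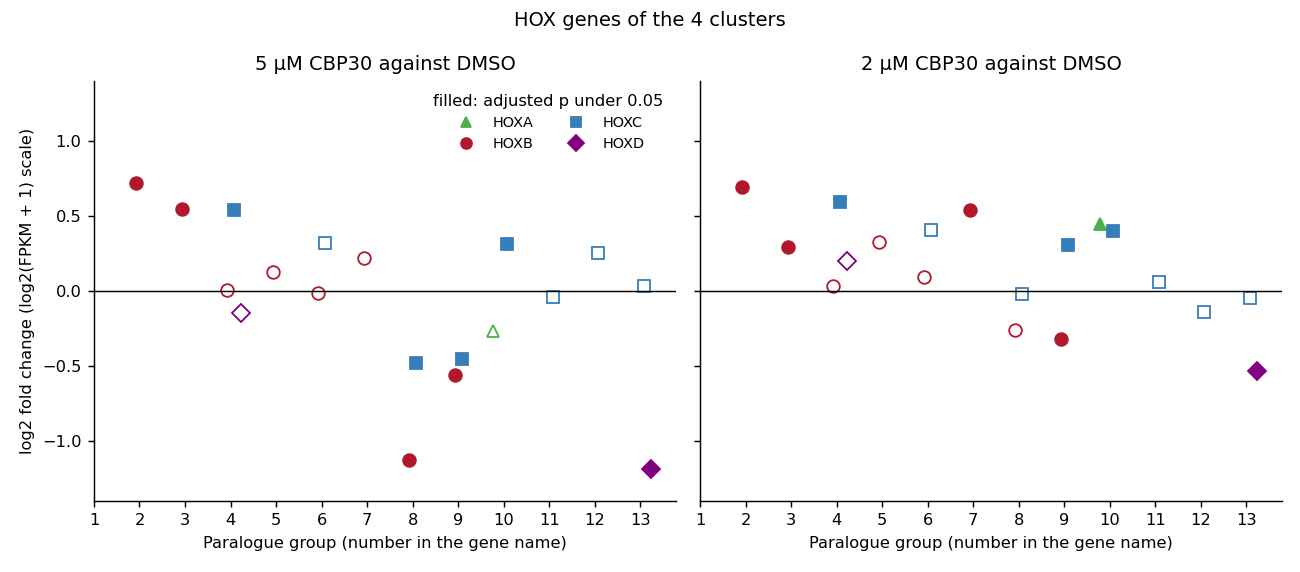
log2 fold change against DMSO on the log2(FPKM + 1) scale (y axis) of 19 HOX genes by their number in the cluster (x axis), 1 panel for each concentration of CBP30, with symbols for the HOXA, HOXB, HOXC and HOXD clusters and filled symbols where the adjusted p was under 0.05. With 5 µM the genes numbered 8 and 9 lie below 0 in both clusters that have tested members, while with 2 µM HOXC9 lies above 0 (0.31).

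Genes that act with or on HOX genes are described by lists, whose counts with 5 µM CBP30 are to be read beside the 25.4% of all tested genes called lower and the 21.2% called higher. The shares of all tested genes called lower and higher were 16.3% and 15.9% with 2 µM CBP30, and 3.28% and 3.84% with 5 µM I-CBP112. HOX proteins bind DNA with TALE cofactors of the PBX, MEIS and PKNOX families. Of 8 such genes 5 were tested and, with 5 µM CBP30, 2 were higher and 0 lower. MEIS3 stood at 1.27 to 1.32 FPKM with DMSO and at 2.37 to 2.44 with 5 µM CBP30 (log2 fold change 0.57, adjusted p = 0.0115 from limma), and PKNOX1 rose by 0.18 on the log2 scale. The median over the 5 genes was 0.15. With 2 µM CBP30 1 of the 5 was higher and 0 lower, and both concentrations of I-CBP112 called 0 of the 5.

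Of the activators around MLL and menin, 15 of 16 names were in the table, where KMT2A stands under its older symbol MLL, and all 15 were tested. With 5 µM CBP30, 7 were lower and 2 higher, with a median of −0.13, and with 2 µM 9 were lower and 1 higher. Without replicate 1 of 2 µM CBP30, again 9 were lower, with WDR5 in place of RBBP5, and 1 higher, where 19.9% of all tested genes were called lower and 17.2% higher. Without replicate 2, 11 were lower and 2 higher, where the shares were 28.1% and 28.6%. AFF1 and RBBP5, picked out after their values were seen, were lower with 2 µM CBP30 (−0.57 and −0.34) and stood at 0.30 and 0.0073 with 5 µM, where neither passed the test. MLLT3, a subunit of the super elongation complex and a partner of MLL in leukemia fusions, was at 2.28 and 2.76 FPKM with DMSO and at 0.558 and 0.834 with 5 µM CBP30 (log2 fold change −1.05, adjusted p = 0.000354 from limma). KDM6B, a demethylase of the Polycomb mark (−0.93), and ASH2L, a core subunit of MLL complexes (−0.50), were lower, and AFF4 (0.58) and KDM6A (0.46) were higher. Both concentrations of I-CBP112 called 0 of the 15.

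Of 18 Polycomb genes, 5 were higher and 1 lower with 5 µM CBP30, with a median of 0.13. CBX8 (0.51), MTF2 (0.37) and CBX2 (0.33) were the 3 with the largest rise, and CBX7 was lower just inside the threshold (−0.19, adjusted p = 0.0499 from limma). With 2 µM CBP30, 5 of the 18 were higher and 0 lower. The median was 0.18, and it was 0.16 without replicate 1 and 0.21 without replicate 2 of that condition. With 5 µM I-CBP112 1 was higher and 0 lower, and with 2 µM 0 were called. Of 16 other regulators of HOX genes, 11 were tested, and with 5 µM CBP30 4 were lower and 3 higher, with a median of 0.01. NPM1, the nucleolar chaperone whose leukemic mutation goes with high HOX expression (−0.54), RXRA, a partner of the retinoic acid receptors (−0.50), and USF2 (−0.36) were lower, and NFYA, a subunit of the factor that binds CCAAT boxes (0.45), CTCF, the insulator protein (0.16), and RXRB (0.12) were higher. At 2 µM CBP30 1 was lower and 1 higher. The median was 0.083, and it was 0.055 without replicate 1 and 0.081 without replicate 2 of that condition. With I-CBP112 0 were called.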

How the data were processed

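RNA-seq of K562 cells treated for 48 h (2 biological replicates in each of 5 conditions) was analysed from the table of FPKM values that the authors deposited, with 1 column per sample. According to the submitters' processing notes the tools were TopHat2 2.0.10, Bowtie 1.0.0, SAMtools 0.1.19, Cufflinks 2.2.1 and Cuffnorm on hg19. The gene annotation is not given in the sources used here. FPKM hold no read counts, so no counting error was derived.

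In R 4.3.3, limma 3.58.1 (lmFit, eBayes with a trend) was fitted once to log2(FPKM + 1) of all 10 samples, for 12788 genes averaging 0.5 FPKM or more. A gene was called at p under 0.05 after Benjamini-Hochberg adjustment over all tested genes. The code was tested on simulated data. Positions and transcript lengths came from GENCODE models on GRCh37, and Pearson correlations and tables from Python 3.11.15. The fit was repeated under 19 alternatives. These removed the length trend, took the replicate number as a block, fitted only the groups compared, dropped the eBayes trend, quantile-normalized or median-centred the libraries, set the filter to 5 FPKM or lifted it, used a pseudocount of 0.1, or left out each sample.

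The 8 genes and the lists of related genes were chosen with earlier results of these data known. All 8 are named in every comparison. From each list, up to 3 genes called in each direction with 5 µM CBP30 are named, by size of change. From these lists 2 genes are not reported here, and the counts, medians and plot leave them out.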

Additional observations from a re-analysis of the deposited data

Results flagged for a closer look

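The change of HOXB8 from 2 to 5 µM differed between the compounds by a test of the difference itself. It was larger with CBP30 than with I-CBP112 by −0.76 on the log2(FPKM + 1) scale (SE 0.154, adjusted p = 0.0422 from limma, n = 2 per group). HOXB8 went from 12.7 and 10.5 to 6.53 and 5.28 FPKM with CBP30 and from 11.5 and 12.4 to 11.0 and 11.1 with I-CBP112. The difference ranged from −0.89 to −0.54 over the 19 alternatives. It was called in 8 of them, of which 2 left out a replicate of 2 µM CBP30 and are not read. Leaving out a sample changed the number of calls over all tested genes too.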

How the results depend on the processing

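Over the 8 genes, the 4 comparisons with DMSO and the 19 alternatives, 549 of 600 values kept their direction and their side of the threshold, 19 passed it where the reported value did not, 17 lost it and 15 changed sign. Values are given in genes called out of 8. With the fit of only the groups compared, 0 were called lower and 0 higher with 2 µM CBP30, beside 164 and 143 of all 12788 tested genes. With 5 µM I-CBP112 3 were lower, beside 856. Called were 0 between the CBP30 concentrations (4 lower and 2 higher of all tested genes), 0 between the compounds at 2 µM (9 and 5) and 0 in the difference of the concentration steps (67 and 25). The reported fit called 2079 and 2032, 419 lower, 2724 and 2255, 1081 and 912, and 424 and 208 in these comparisons. With the length trend removed, 4 were higher with 5 µM CBP30 (3232 of 12135 genes), 2 lower with 2 µM CBP30 (2391) and 3 lower with 5 µM I-CBP112 (789). That setting called 4 between the CBP30 concentrations (2282 lower and 2288 higher of 12135 genes) and 2 in the difference of the steps (500 and 413). Quantile normalization left 1 between the CBP30 concentrations (2537 lower and 2546 higher of all tested genes). No filter left 0 in the difference of the steps (269 and 150 of 19308 genes). With each sample left out in turn, the counts with 2 µM CBP30 were 1 to 3 lower and 0 to 3 higher, with I-CBP112 0 to 3 lower at 5 µM and 0 to 1 at 2 µM, between the CBP30 concentrations 1 to 6, between the compounds 3 to 5 at 5 µM and 0 to 4 at 2 µM, and in the difference of the steps 0 to 3. Where this left a group with 1 sample, that sample was taken to vary like the others. The cause was not tested.

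Same-numbered samples deviated from their group means with correlations of −0.07 to 0.09, so no shared deviation was seen. With 2 samples per group this cannot show whether the samples were handled as pairs. With the replicate number as a block, 2 genes were higher with 2 µM CBP30 (HOXB3 was lost, adjusted p = 0.0547 from limma) and 0 were called in the difference of the steps, and the counts of the other comparisons were unchanged.

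The values that changed sign were near 0 in the reported fit. With the length trend removed they were HOXB6 at 0.11 with 5 µM CBP30, and HOXB4 at −0.075 and HOXB6 at −0.016 with 2 µM CBP30. With 1 sample left out, the log2 fold changes with 5 µM CBP30 ranged from −0.0084 to 0.018 for HOXB4, −0.011 to 0.27 for HOXB5 and −0.16 to 0.13 for HOXB6. With 2 µM CBP30 they ranged from −0.13 to 0.19 for HOXB4 and −0.053 to 0.24 for HOXB6. With I-CBP112 they ranged at 5 µM from −0.069 to 0.052 for HOXB3 and −0.25 to 0.036 for HOXB6, and at 2 µM from −0.026 to 0.11 for HOXB3 and −0.042 to 0.25 for HOXB6.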
